A study of Mus musculus with 4 samples.

Results

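Axon guidance ligands and receptors were followed in AXL-deficient and AXL-proficient mammary tumours of the MMTV-Neu mouse model. AXL is a receptor tyrosine kinase. The members are the protein-coding genes whose symbols name a semaphorin of classes 3 to 7, a plexin, an Eph receptor, an ephrin, a Slit, a Robo, a netrin, an Unc5 receptor or one of the L1-type adhesion genes Nfasc, L1cam, Nrcam and Chl1. The rule found 69 such genes among the 38293 gene rows of the count tables. Of these, 55 passed the filter on low counts and were tested. The other 14 did not, 5 of them with no read in any library. The netrin gene Ntn3 matches the rule by name but was not analysed here.

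The libraries came from 2 AXL KO tumours and 2 WT tumours, all of the FVB strain and all from mice with the MMTV-Neu transgene. In these mice a mammary tumour virus promoter drives the Neu oncogene, a form of Erbb2, in mammary epithelium, so the WT tumours carry the transgene too and differ from the others by the AXL genotype. The sources used here do not give how the AXL allele was made, in which cells it was lost or how old the mice were. The labels do not tie the libraries to separate animals, so each p-value covers the variation among these 4 libraries alone, part of which may be technical. RNA was taken from bulk tumour, in which fewer cells of a type and less RNA per cell cannot be told apart.

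Axon guidance cues steer growing axons, and most of the same proteins also act between epithelial cells, vessels and immune cells. Semaphorins signal through plexins, with neuropilins as partners for the secreted class 3. Ephrins are bound to the membrane and signal through Eph receptor tyrosine kinases, with signals running into both cells of a contact. Slits bind Robo receptors, netrins bind DCC, neogenin and Unc5 receptors, and the L1 family are adhesion molecules whose cytoplasmic tails bind ankyrins. In mammary gland netrin 1 and neogenin, and Slit2 and Robo1, are known for a part in the layering of the ducts.

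Gene counts summed to 19161051 and 33131739 in AXL KO replicates 1 and 2, against 21276336 and 18929743 in WT replicates 1 and 2. Levels are in CPM, that is gene counts divided by library size in a scale common to all libraries, with TMM factors, or as CPM per kilobase of exon where genes are set beside each other. Axl itself was at 4.75 and 4.89 CPM in AXL KO tumours, against 61.8 and 35.2 CPM in WT tumours. Luminal epithelial markers were detected in all 4 libraries, 11 of 11, with a summed level between 24076 and 24090 CPM in AXL KO and between 15415 and 17597 CPM in WT, most of it from Erbb2. The sum does not stand for the list, in which 3 markers had a positive and 8 a negative log2 difference, with a median of −0.085. WT replicate 2 stood apart in gene lists outside the guidance genes. The interferon list summed to 2223 and 2458 CPM in AXL KO, against 1615 and 88.2 CPM in WT, and the hypoxia list to 1905 and 1315 CPM in AXL KO, against 1460 and 3717 CPM in WT. WT replicate 2 was also the highest library for 11 of 11 proliferation genes, which summed to 443 and 672 CPM in AXL KO, against 572 and 1254 CPM in WT. It was the lowest for 9 of 9 tested T cell markers, the list summing to 16.3 and 23.003 CPM in AXL KO, against 28.1 and 6.23 CPM in WT. AXL KO replicate 1 had the lowest sum of the 12 fibroblast markers, 379 CPM, beside 1206 CPM in AXL KO replicate 2 and 875 and 1324 CPM in WT. That library was the lowest for 9 of the 12 markers. The description of AXL KO replicate 2 has another prefix than the other 3, so the values without that library are those within 1 prefix.

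Promoter windows are shown for Nfasc, the member with the lowest p, and for the neighbouring ephrin genes Efna1 and Efna3, which had the lowest p among the ligands. They come from RefSeq on GRCm38.p6, run 5′ to 3′ over 300 bases around an annotated start, and are all on the minus strand. Upstream and downstream give the order of the windows of each gene. Both Nfasc windows lie inside the gene, whose 5′ end is at position 132741797, so no window at that end is shown. Capitals mark ACGTG or GCGTG, the core of the hypoxia response element, on either strand, with overlapping matches merged.
Nfasc upstream start (chr1:132707277-132707576): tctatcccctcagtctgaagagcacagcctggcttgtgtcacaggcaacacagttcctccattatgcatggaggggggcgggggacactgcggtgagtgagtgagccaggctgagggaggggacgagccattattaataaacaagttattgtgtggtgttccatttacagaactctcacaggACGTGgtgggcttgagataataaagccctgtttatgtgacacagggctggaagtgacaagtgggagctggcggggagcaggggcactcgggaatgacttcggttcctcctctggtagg
Nfasc downstream start (chr1:132642809-132643108): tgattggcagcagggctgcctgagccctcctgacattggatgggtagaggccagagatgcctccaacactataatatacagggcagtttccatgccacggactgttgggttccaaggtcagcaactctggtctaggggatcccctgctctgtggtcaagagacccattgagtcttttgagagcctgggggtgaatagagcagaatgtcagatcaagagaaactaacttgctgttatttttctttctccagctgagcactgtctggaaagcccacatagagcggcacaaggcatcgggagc
Efna3 upstream start (chr3:89322890-89323189): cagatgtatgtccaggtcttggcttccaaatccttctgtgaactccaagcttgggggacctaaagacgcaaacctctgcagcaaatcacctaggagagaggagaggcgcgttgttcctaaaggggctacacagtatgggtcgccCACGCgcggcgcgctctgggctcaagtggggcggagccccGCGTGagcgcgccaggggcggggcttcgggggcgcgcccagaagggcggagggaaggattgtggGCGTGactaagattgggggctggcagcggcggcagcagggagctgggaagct
Efna3 downstream start (chr3:89321719-89322018): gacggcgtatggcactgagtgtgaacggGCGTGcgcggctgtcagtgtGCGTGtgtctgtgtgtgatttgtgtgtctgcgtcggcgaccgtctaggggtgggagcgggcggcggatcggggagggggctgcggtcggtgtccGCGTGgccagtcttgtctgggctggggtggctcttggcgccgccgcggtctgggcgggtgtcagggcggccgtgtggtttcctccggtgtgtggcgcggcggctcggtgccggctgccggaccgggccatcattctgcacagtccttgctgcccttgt
Efna1 upstream start (chr3:89280902-89281201): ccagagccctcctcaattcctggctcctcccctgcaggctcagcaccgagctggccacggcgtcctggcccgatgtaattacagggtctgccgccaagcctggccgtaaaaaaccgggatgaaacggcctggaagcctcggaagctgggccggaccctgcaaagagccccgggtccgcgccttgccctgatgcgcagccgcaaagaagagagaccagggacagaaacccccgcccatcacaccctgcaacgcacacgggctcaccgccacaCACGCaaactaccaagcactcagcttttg
Efna1 downstream start (chr3:89279596-89279895): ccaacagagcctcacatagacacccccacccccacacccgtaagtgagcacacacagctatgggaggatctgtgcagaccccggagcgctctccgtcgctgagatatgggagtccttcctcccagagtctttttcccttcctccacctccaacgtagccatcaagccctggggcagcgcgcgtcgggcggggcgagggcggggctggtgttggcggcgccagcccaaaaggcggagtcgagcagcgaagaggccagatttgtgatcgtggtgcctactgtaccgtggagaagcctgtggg
The Nfasc windows held 7 and 3 CG steps, the median over all RefSeq windows being 7, while those of Efna3 held 22 and 34 and those of Efna1 held 20 each. The motif stood 3 times in each Efna3 window, once in the upstream windows of Nfasc and Efna1 and in neither of their downstream windows. At least 1 copy was present in 50.0% of the 78 windows of the 60 members with an entry, beside 43.8% of all 32851 windows. A match is a run of letters and does not show that a factor binds there.

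Most of the guidance signal in these tumours came from a few receptors. Ephb4, the receptor of ephrin-B2, was at 101 and 105 CPM per kilobase in AXL KO, against 121 and 73.6 CPM per kilobase in WT. Epha2, an ephrin-A receptor long studied in breast cancer, was at 119 and 91.9 CPM per kilobase in AXL KO, against 108 and 76.0 CPM per kilobase in WT. The libraries of Ephb4 and Epha2 overlap, so their order is not resolved. Plxnb2, a receptor of class 4 semaphorins, came next at 27.5 and 29.8 CPM per kilobase in AXL KO, against 32.6 and 43.0 CPM per kilobase in WT, below every library of the Eph pair. Together these 3 genes made up 60.9% and 58.0% of the summed level of all members in AXL KO, and 59.7% and 51.5% in WT. Sema4d, a ligand of plexin B1, Efna1 and Ntn1 followed with means of 16.2, 13.8 and 11.9 CPM per kilobase over the 4 libraries, and their libraries overlap.

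**Figure D1:**
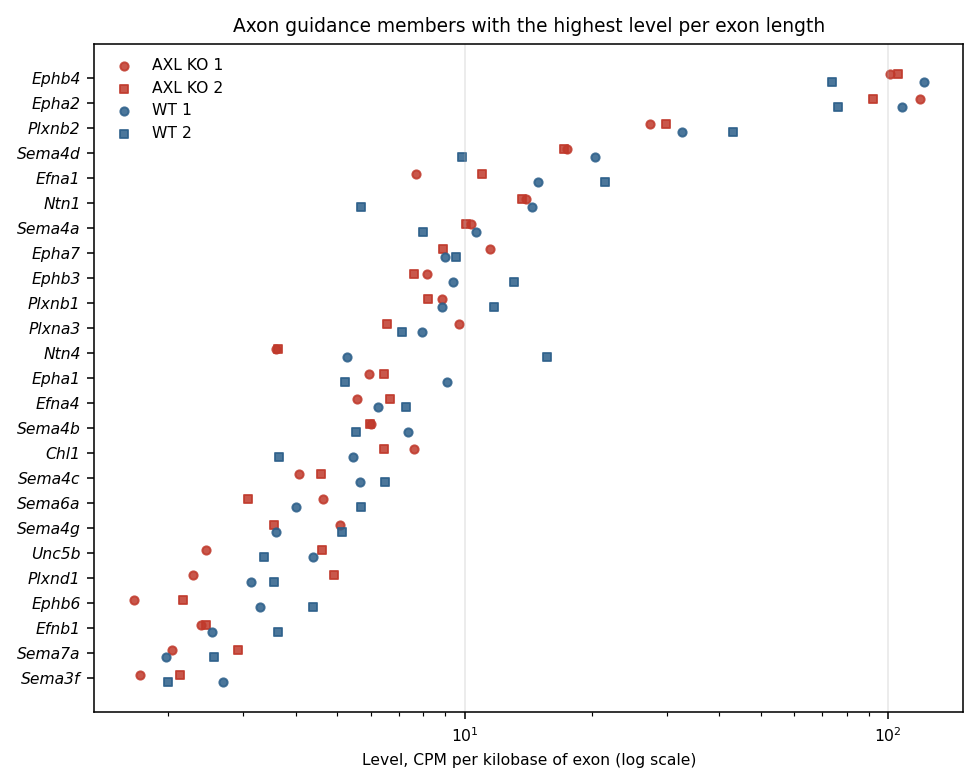
Level of the 25 members with the highest mean, as CPM per kilobase of exon on a log axis, with 1 point per library (red AXL KO, blue WT, circle replicate 1, square replicate 2). Ephb4 and Epha2 lie near 100 CPM per kilobase in all 4 libraries and most members below 20.

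At the other end, Epha6, Epha8, Epha10, Ntn5 and Unc5d had 0 reads in all 4 libraries, which allows levels of up to 0.160 and 0.0900 CPM in AXL KO and 0.140 and 0.157 CPM in WT (3 counts per library, counting error only). The 9 further members that missed the filter, Nrcam, Robo2, Robo3, Slit1, Unc5a, Efnb3, Sema3e, Sema4f and Sema5b, had at most 10 reads in a library. Sema4f had 7 and 10 reads in AXL KO and 2 and 0 in WT.

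In the quasi-likelihood test of edgeR 0 members had an adjusted p under 0.05, as did 0% of all 14330 genes tested. Axl itself was among the genes not called, so a member that did not pass is not shown to be unchanged. At an unadjusted p under 0.05 there were 6 members, 10.9% of the 55, while 2.19% of all tested genes reached it. These were Nfasc and Epha5, higher in AXL KO, and Efna1, Efna3, Ephb6 and Ntn4, lower in AXL KO. Of these, Epha5 and Efna3 passed the low-count filter only through the group in which they are higher, so nothing is read from the share of members. DESeq2 called 1 member, Nfasc, and 0.0894% of the 19010 genes to which it gave an adjusted p. Limma-voom called 0 members and 0% of all genes, with 5 members (Nfasc, Epha5, Ephb6, Efna1 and Chl1) and 1.99% of all genes at an unadjusted p under 0.05.

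With all 4 libraries the set lay close to all tested genes in its median difference. Their median log2 difference (AXL KO minus WT) was 0.062, beside −0.0019 over all tested genes, with 28 above 0 (50.9%, against 49.7% of all tested genes) and 27 below. Both AXL KO libraries were above both WT libraries for 7 members (12.7%, against 14.7% of all tested genes) and below both for 11 (20.0%, against 14.5%). The 28 tested ligands had a median of −0.12 and the 24 tested receptors one of 0.10. With AXL KO replicate 2 left out, and so within 1 prefix, the median of the members was −0.23, beside −0.031 over all tested genes. In that fit the set thus lay less close to all genes.

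**Figure D2:**
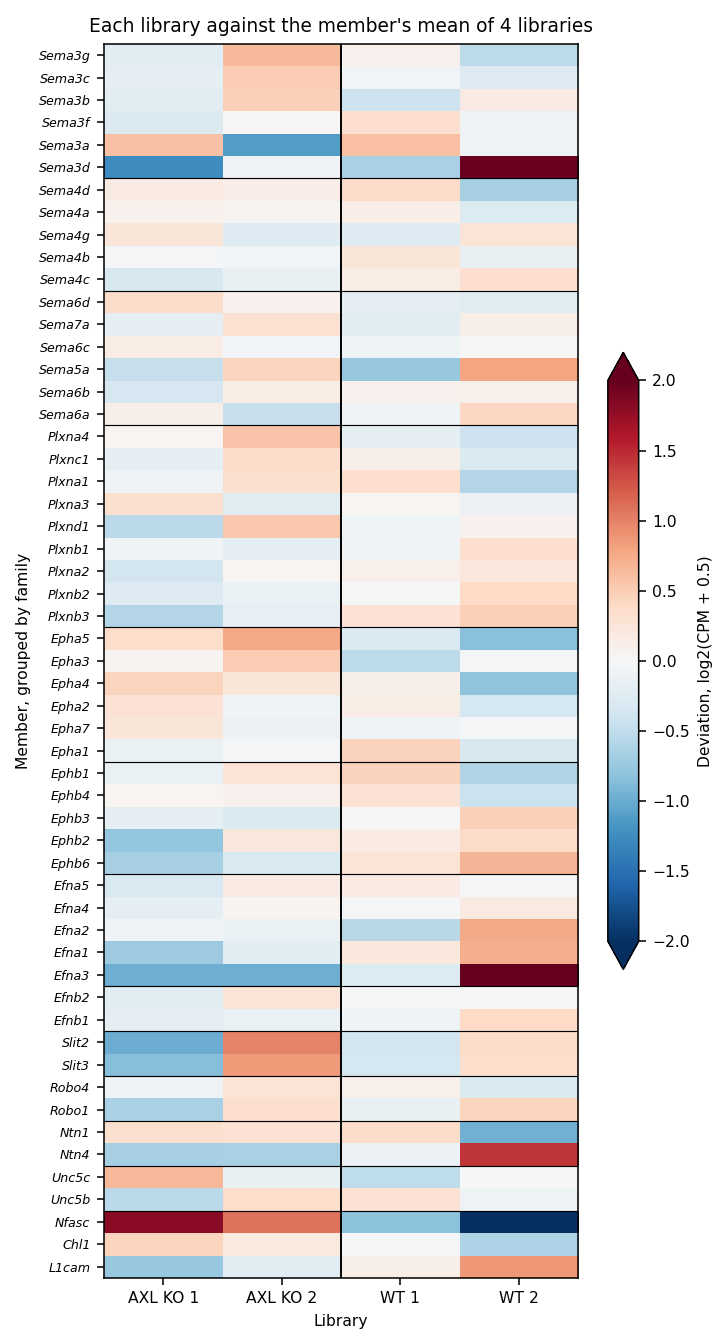
Deviation of each library from the member's mean over 4 libraries, on the log2(CPM + 0.5) scale, for the 55 tested members in rows by family, with AXL KO to the left of the line and WT to the right. Nfasc is high in both AXL KO libraries, while Sema3d, Efna3 and Ntn4 are high in WT replicate 2 alone and Slit2 and Slit3 differ widely within the AXL KO pair.

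Replicates of a group differed more over the members, in the median, than over all genes. On the log2(CPM + 0.5) scale the 2 AXL KO libraries differed by a median of 0.41 over the members, beside 0.21 over all tested genes, and the 2 WT libraries by 0.49, beside 0.37. AXL KO replicate 1 was the lowest library for 22 of the 55 members (40.0%, against 24.7% of all tested genes). WT replicate 2 was the highest for 20 and the lowest for 19 (36.4% and 34.5%, against 34.6% and 35.8%).

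The L1 family held the member with the lowest p in the whole set. Nfasc encodes neurofascin, an adhesion molecule of axon initial segments and nodes of Ranvier, and lies on the minus strand at chr1:132564690-132741797 (GRCm38, ENSMUSG00000026442). It had 411 and 440 reads in AXL KO tumours, against 67 and 20 in WT tumours. That put it at 21.95 and 13.2 CPM in AXL KO, against 3.13 and 1.05 CPM in WT. The lowest AXL KO library thus lay above the highest WT library, though within each group the libraries also stood apart. The mean was 17.6 ± 6.19 CPM in AXL KO and 2.09 ± 1.47 CPM in WT (SD, n = 2 each), an 8.33-fold difference in the edgeR fit.

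The log2 difference of Nfasc was 3.06 ± 0.61 (SE), with an unadjusted p of 0.0037 and an adjusted p of 0.9997 by edgeR, and an adjusted p of 0.00224 by DESeq2. Leaving out 1 library at a time gave log2 differences between 2.48 (WT replicate 2 left out) and 4.06 (WT replicate 1 left out). The edgeR adjusted p without WT replicate 1 was 0.0622, a fit in which the lone WT library is assumed to vary as the AXL KO pair does. Within 1 description prefix the log2 difference was 3.36.

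The other L1 genes had smaller differences. Chl1, which encodes the close homologue of L1, was at 93.6 and 79.2 CPM in AXL KO, against 67.0 and 44.9 CPM in WT. The groups did not overlap, and the log2 difference was 0.63 ± 0.25 (SE), with an unadjusted p of 0.0537 by edgeR. L1cam, the founding member, went the other way with 2.30 and 3.60 CPM in AXL KO, against 4.63 and 8.12 CPM in WT. Its log2 difference was −1.10 ± 0.46 (SE), and 100 bases of its exons overlap Arhgap4 on the same strand. Nrcam had 4 and 8 reads in AXL KO, against 6 and 7 in WT. Per exon length Chl1 was the most abundant of the 4 genes, at 7.62 and 6.44 CPM per kilobase in AXL KO, against 5.45 and 3.65 CPM per kilobase in WT, while Nfasc was at 1.55 and 0.933 CPM per kilobase in AXL KO, against 0.221 and 0.0740 CPM per kilobase in WT.

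**Figure D3:**
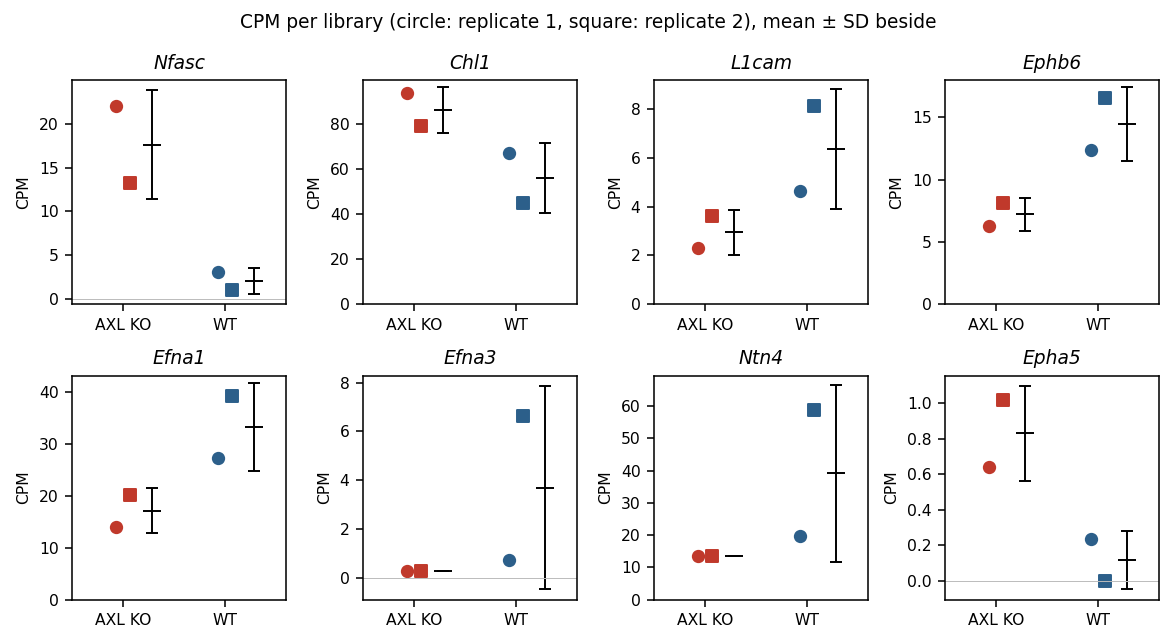
CPM in each library for 8 members (red AXL KO, blue WT, circle replicate 1, square replicate 2), with the mean ± SD of the 2 libraries beside the points. All 8 were picked from the members whose groups do not overlap. Such members made up 12.7% (above) and 20.0% (below) of those tested, against 14.7% and 14.5% of all tested genes. In the panels of Efna3 and Ntn4 the gap is set mainly by WT replicate 2.

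Nerve and glial genes were looked at beside Nfasc, since neurofascin is best known from nerve. Of 15 neuronal markers, Nefl, Nefm, Snap25 and Th were at 0 reads in all 4 libraries. The list summed to 215 and 194 CPM in AXL KO and 167 and 183 CPM in WT, nearly all of it Map2, which had 214 and 192 CPM in AXL KO and 166 and 182 CPM in WT. The 15 Schwann cell markers summed to 1004 and 961 CPM in AXL KO and 973 and 1293 CPM in WT, most of it Sox10, which mammary epithelium also expresses. Of 11 tested Schwann cell markers 3 were above both WT libraries and 4 below (27.3% and 36.4%, against 14.7% and 14.5% of all tested genes), 2 of those above with an unadjusted p under 0.05 by edgeR. Picked after their values were seen, the cadherin gene Cdh19 was at 179 and 150.02 CPM in AXL KO, against 122 and 114 CPM in WT, and S100b at 20.9 and 31.6 CPM in AXL KO, against 33.99 and 68.1 CPM in WT. The part of nerve or glial cells in the Nfasc difference was not tested.

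Known partners of the L1 family that were tested showed no difference of that size. Partners that missed the filter had few reads, and their differences are not resolved. Cntn1 had 0 and 2 reads in AXL KO, against 4 and 7 in WT, and Cntn2 had 3 and 10, against 1 and 2. Of 18 partner genes 13 were tested, 2 with both AXL KO libraries above both WT libraries (15.4%, against 14.7% of all tested genes), 0 below and 0 past the test. Ank3, which encodes the ankyrin that anchors neurofascin, was at 137 and 150.0 CPM in AXL KO, against 126 and 109 CPM in WT. Sptbn1, a spectrin gene, was at 409 and 451 CPM in AXL KO, against 354 and 359 CPM in WT. The groups of both genes were apart, by 0.29 and 0.27 on the log2 scale. The sodium channel gene Scn8a was at 6.89 and 0.240 CPM in AXL KO, against 0.421 and 1.62 CPM in WT, and the scaffold gene Dlg4 at 0.801 and 1.14 CPM in AXL KO, against 0.842 and 2.51 CPM in WT, so both pairs of groups overlapped.

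Of 12 further coding genes within 500 kb of Nfasc that were tested, Pik3c2b, a phosphoinositide kinase gene, had the lowest p. It was at 161 and 112 CPM in AXL KO, against 101 and 72.6 CPM in WT, a log2 difference of 0.66 with an unadjusted p of 0.0566 by edgeR. Rbbp5 was at 49.1 and 49.1 CPM in AXL KO and 48.1 and 47.5 CPM in WT, and Mdm4 at 43.4 and 29.7 CPM in AXL KO and 31.3 and 38.9 CPM in WT. The differences of the 12 genes ran from −0.87 for Nuak2 to 0.66, all smaller than that of Nfasc.

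Ephrin-A ligands had negative log2 differences for 5 of 5 genes, with a median of −0.42. A positive difference was found for 49.7% of all tested genes. These ligands are tethered by a GPI anchor and bind mainly EphA receptors. Groups were apart for 2 of the 5, Efna1 and Efna3 (40.0%, against 14.5% of all tested genes). With so few genes, no change of the whole family is read from these counts. Efna1 was at 14.0 and 20.2 CPM in AXL KO, against 27.3 and 39.2 CPM in WT. All AXL KO values were below all WT values, with a log2 difference of −0.96 ± 0.30 (SE) and an unadjusted p of 0.0245 by edgeR. Efna3 was at 0.267 and 0.270 CPM in AXL KO, against 0.748 and 6.65 CPM in WT, that is 5 and 9 reads in AXL KO and 16 and 127 reads in WT. Its log2 difference of −3.75 ± 1.18 (SE) rested on WT replicate 2, without which it was −1.46. When WT replicate 1 was left out instead it was −4.60 with an edgeR adjusted p of 0.0489, which sets the AXL KO pair against the single library in which Efna3 was highest and takes the spread from the AXL KO pair. Efna3 passed the low-count filter through its WT libraries alone, and 344 bases of its exons overlap Gm15998 on the opposite strand.

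Efna1, Efna3 and Efna4 lie next to each other on chromosome 3 on the same strand. Efna4 was at 8.92 and 10.7 CPM in AXL KO, against 10.01 and 11.6 CPM in WT, and its groups overlapped. All 3 genes were highest in WT replicate 2, as was so for the hypoxia list and for 34.6% of all tested genes. Their lowest library was AXL KO replicate 1, as for 40.0% of the members and 24.7% of all tested genes. For Efna3 the AXL KO libraries were nearly equal, at 0.267 and 0.270 CPM. The hypoxia list summed to 1905 and 1315 CPM in AXL KO, against 1460 and 3717 CPM in WT. EFNA1 and EFNA3 are known from human cells as genes induced by low oxygen. The part of hypoxia in these differences was not tested. Without WT replicate 2, Efna1 had a log2 difference of −0.67.

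Efna2 and Efna5 had log2 differences of −0.42 and −0.13, with overlapping groups. Of the ephrin-B ligands, which span the membrane, Efnb1 was at 8.23 and 8.49 CPM in AXL KO, against 8.74 and 12.5 CPM in WT. The gap between the groups was narrow, and the log2 difference was −0.35 ± 0.31 (SE). Efnb2, the main partner of EphB4, had a log2 difference of 0.062.

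Among the EphA receptors 5 of 6 tested genes had a positive difference (83.3%, against 49.7% of all tested genes). Both AXL KO libraries were above both WT libraries for 3 (50.0%, against 14.7% of all tested genes), of which Epha3 and Epha5 were low in level. Epha5 was at 0.641 and 1.02 CPM in AXL KO, against 0.234 and 0 CPM in WT, which is 12 and 34 reads against 5 and 0. Its log2 difference was 2.74 ± 1.02 (SE), with an unadjusted p of 0.0406 by edgeR. Epha3 was at 0.588 and 0.990 CPM in AXL KO, against 0.234 and 0.524 CPM in WT, with a log2 difference of 1.10 ± 0.67 (SE). Both rest on few reads, and Epha5 passed the low-count filter through its AXL KO libraries alone. Nothing is therefore read from the share of EphA receptors with groups apart. Epha4 was at 8.44 and 7.23 CPM in AXL KO, against 6.64 and 3.25 CPM in WT, also without overlap. The abundant Epha2, given above per kilobase, was at 555 and 430 CPM in AXL KO, against 503 and 355 CPM in WT, and its groups overlapped.

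Of the 5 EphB receptors 2 were below both WT libraries (40.0%, against 14.5% of all tested genes). Ephb6, whose product lacks kinase activity, was at 6.25 and 8.16 CPM in AXL KO, against 12.4 and 16.5 CPM in WT, with no overlap. The log2 difference of −1.0 ± 0.31 (SE) had an unadjusted p of 0.0232 by edgeR and lay between −1.23 and −0.78 with any 1 library left out. Ephb3 was at 54.2 and 50.5 CPM in AXL KO, against 62.4 and 86.9 CPM in WT, with a log2 difference of −0.51. Ephb4 was at 470.2 and 489 CPM in AXL KO, against 563 and 342 CPM in WT, so that WT replicates lay on either side of the AXL KO pair.

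**Figure D4:**
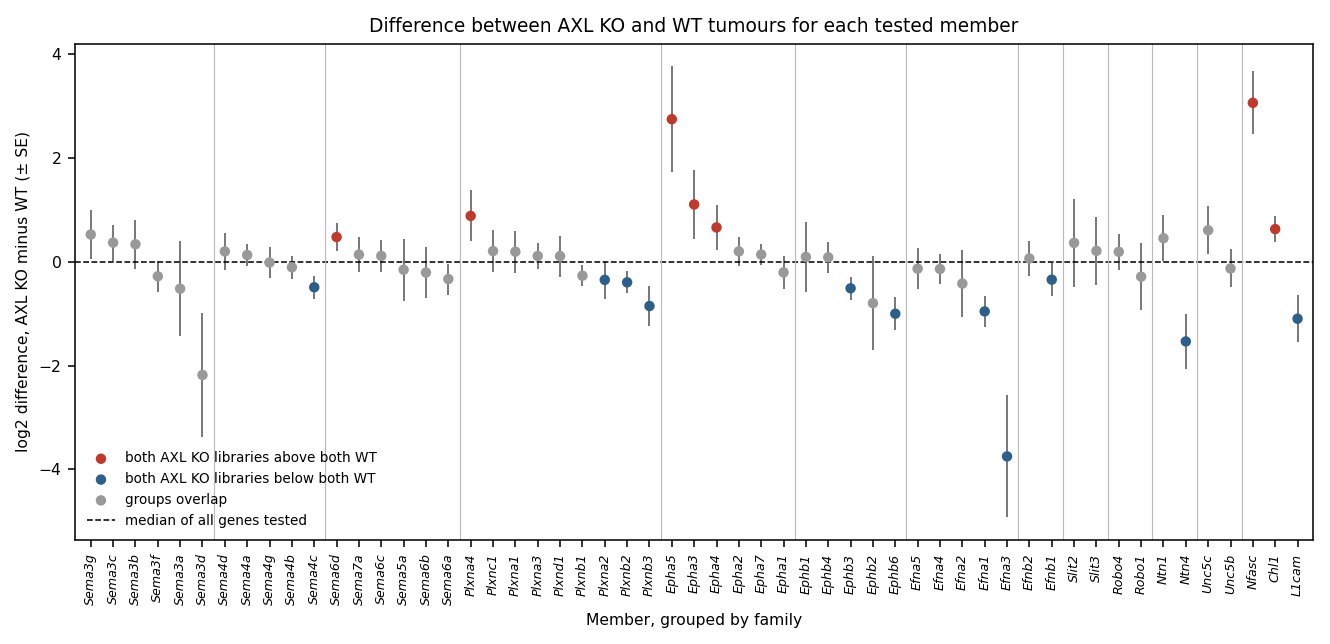
log2 difference (AXL KO minus WT) with its standard error from the edgeR fit for the 55 tested members, grouped by family. Red and blue points are the 7 and 11 members whose AXL KO libraries lie above or below both WT libraries, grey points overlap, and the dashed line is the median of all tested genes at −0.0019.

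Among the 17 tested semaphorins, Sema6d was above and Sema4c below both WT libraries, an order that 14.7% and 14.5% of all tested genes had. Of the 6 tested class 3 genes, which encode secreted ligands, 0 had groups apart. Sema3f, the most abundant of them per kilobase, was at 8.92 and 11.1 CPM in AXL KO, against 14.0 and 10.4 CPM in WT. Sema3d had the lowest p of the class at 0.127 and was at 0.267 and 1.23 CPM in AXL KO, against 0.655 and 6.65 CPM in WT. WT replicate 2 alone set its log2 difference of −2.18, which was 0.32 without that library.

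Class 4 semaphorins span the membrane and bind mainly plexin B receptors. Sema4d, the most abundant semaphorin per kilobase, was at 134 and 132 CPM in AXL KO, against 156 and 75.7 CPM in WT. Sema4c was at 18.6 and 21.1 CPM in AXL KO, against 26.0 and 29.8 CPM in WT, the only class 4 gene of 5 tested whose groups did not overlap, with a log2 difference of −0.49 ± 0.22 (SE). In classes 5 to 7, Sema6d was at 16.0 and 13.02 CPM in AXL KO, against 10.6 and 10.3 CPM in WT. Its log2 difference of 0.47 ± 0.26 (SE) stayed between 0.31 and 0.60 with any 1 library left out. Sema6a, the most abundant of classes 5 to 7 per kilobase, was at 40.6 and 27.0 CPM in AXL KO, against 35.2 and 50.0 CPM in WT, with overlap.

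Among the plexins, the receptors of semaphorins, 3 of 9 were below both WT libraries and 1 above (33.3% and 11.1%, against 14.5% and 14.7% of all tested genes). Plxnb2 was at 212 and 230.4 CPM in AXL KO, against 251 and 332 CPM in WT, with a log2 difference of −0.40 ± 0.21 (SE). Plxnb3 was at 1.92 and 2.73 CPM in AXL KO, against 3.93 and 4.55 CPM in WT, with a log2 difference of −0.85 ± 0.39 (SE). Neither passed the test, and the third plexin B gene, Plxnb1, overlapped with a difference of −0.27. Plxna2, a receptor of class 3 and 6 semaphorins, was below with a log2 difference of −0.35. Plxna4 was at 1.34 and 2.16 CPM in AXL KO, against 1.08 and 0.838 CPM in WT, the plexin gene with both AXL KO libraries above.

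The tested netrin genes had differences of opposite sign. Ntn4, a laminin-binding netrin of basement membranes, was at 13.5 and 13.6 CPM in AXL KO, against 19.8 and 58.6 CPM in WT. Its log2 difference of −1.53 ± 0.53 (SE) had an unadjusted p of 0.0319 by edgeR. It was −0.55 without WT replicate 2, and −2.12 with an edgeR adjusted p of 0.0267 without WT replicate 1. That p likewise sets the AXL KO pair against WT replicate 2 alone, with the spread taken from the AXL KO pair. Ntn1, the classical attractant netrin, was at 87.5 and 85.6 CPM in AXL KO, against 90.8 and 35.8 CPM in WT, so only WT replicate 2 stood apart. Of the Unc5 receptors, Unc5b was at 15.3 and 28.9 CPM in AXL KO, against 27.4 and 20.995 CPM in WT, and Unc5c at 7.21 and 3.87 CPM in AXL KO, against 2.90 and 4.35 CPM in WT, both with overlap. The netrin receptor gene Dcc had 0 reads in all 4 libraries, while neogenin (Neo1) was at 106 and 101 CPM in AXL KO, against 126 and 74.0 CPM in WT.

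Slit2 and Slit3 differed widely between the AXL KO libraries. Slit2 was at 0.855 and 4.86 CPM in AXL KO, against 1.59 and 2.98 CPM in WT. Slit3 was at 3.74 and 13.3 CPM in AXL KO, against 5.52 and 9.32 CPM in WT. Both WT libraries lay between the AXL KO libraries for each gene, and the log2 differences of 0.36 and 0.21 were −1.43 and −1.0 without AXL KO replicate 2. Both genes were lowest in AXL KO replicate 1, as were 40.0% of the members and 24.7% of all tested genes. The sum of the fibroblast list, whose 12 markers were detected in every library, was lowest there too. So were the sums of the endothelial, the pericyte and smooth muscle, and the proliferation lists. Both genes were highest in AXL KO replicate 2, while the fibroblast sum was highest in WT replicate 2. The part of fibroblast or other cell content was not tested. Robo4, the Robo of endothelial cells, was at 5.55 and 7.29 CPM in AXL KO, against 6.45 and 4.82 CPM in WT, beside endothelial markers that summed to 146 and 201 CPM in AXL KO and 170.2 and 168 CPM in WT.

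**Figure D5:**
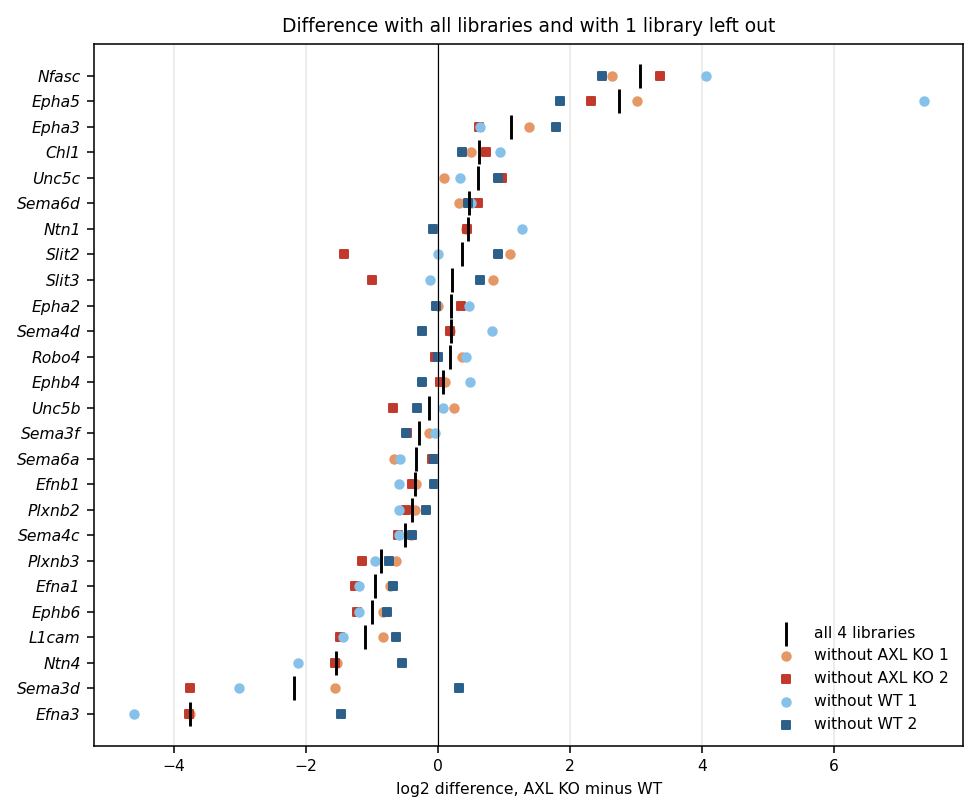
log2 difference (AXL KO minus WT) of the 26 members described one by one, with all 4 libraries (bar) and with each library left out. Nfasc keeps a difference of at least 2.48, Sema3d, Slit2 and Slit3 change sign, and the Epha5 value without WT replicate 1 is set against a library with no Epha5 read and is no measure of fold.

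Ligands and receptors that pair were set side by side per kilobase. Efna1 was at 7.68 and 11.01 CPM per kilobase in AXL KO, against 14.9 and 21.4 CPM per kilobase in WT, each time well under its receptor gene Epha2. Sema4d exceeded its receptor gene Plxnb1, at 8.87 and 8.20 CPM per kilobase in AXL KO, against 8.83 and 11.7 CPM per kilobase in WT, in 3 of 4 libraries, WT replicate 2 being the exception. Ntn1, at 13.9 and 13.6 CPM per kilobase in AXL KO, against 14.5 and 5.70 CPM per kilobase in WT, exceeded in all 4 libraries Unc5b, at 2.45 and 4.61 CPM per kilobase in AXL KO, against 4.39 and 3.35 CPM per kilobase in WT. Efnb2 stood at 0.771 and 1.12 CPM per kilobase in AXL KO, against 0.894 and 0.924 CPM per kilobase in WT, far under Ephb4.

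Other pairs were low on at least 1 side. Sema7a, at 2.04 and 2.92 CPM per kilobase in AXL KO, against 1.97 and 2.56 CPM per kilobase in WT, exceeded its receptor gene Plxnc1, at 0.441 and 0.683 CPM per kilobase in AXL KO, against 0.566 and 0.414 CPM per kilobase in WT. Plxnd1 was at 2.29 and 4.91 CPM per kilobase in AXL KO, against 3.14 and 3.56 CPM per kilobase in WT. Of its ligands, Sema3c was at 1.32 and 2.21 CPM per kilobase in AXL KO, against 1.47 and 1.27 CPM per kilobase in WT, and Sema3e missed the filter. Slit2 and Robo1 were both at or under 0.191 CPM per kilobase in every library.

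Beyond the members, 18 of 25 co-receptors and other cues were tested and 0 passed, with 3 above and 3 below both WT libraries (16.7% each, against 14.7% and 14.5% of all tested genes) and a median of −0.0095. Cd72, a Sema4D receptor of B cells, had the lowest p at 0.0402 unadjusted by edgeR and was at 2.94 and 3.24 CPM in AXL KO, against 1.64 and 1.26 CPM in WT. Sdc1, the syndecan 1 gene, was at 27.7 and 39.1 CPM in AXL KO, against 45.7 and 53.8 CPM in WT. Neither group pair overlapped. The integrin genes Itga1 and Itga6 had log2 differences of 0.53 and −0.62, and the neuropilin genes Nrp1 and Nrp2 differences of 0.30 and −0.15.

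Of 50 intracellular effectors 48 were tested and 0 passed, with 13 below and 2 above both WT libraries (27.1% and 4.17%, against 14.5% and 14.7% of all tested genes) and a median of −0.032. Vav2, an exchange factor downstream of Eph receptors, was at 44.7 and 38.0 CPM in AXL KO, against 52.6 and 74.9 CPM in WT, with an unadjusted p of 0.0473 by edgeR. Arhgap39, the mammalian form of a Robo-binding GTPase activator of flies, was at 29.5 and 26.4 CPM in AXL KO, against 33.6 and 65.9 CPM in WT. The kinase gene Fyn was at 18.5 and 23.0 CPM in AXL KO, against 26.0 and 37.3 CPM in WT. WT replicate 2 was the highest library for these 3 genes and for Pak1, whose groups overlapped. Without it their log2 differences were −0.35, −0.27, −0.33 and −0.025, against −0.62, −0.83, −0.61 and −0.87 with all libraries.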

How the data were processed

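RNA of 2 AXL KO and 2 WT tumours was sequenced, and the authors deposited 1 table of raw read counts per library. The submitters' processing notes name the build GRCm38 and, without roles, the tools DESeq2 1.4.5, HTSeq 0.5.3, TopHat2 2.0.10 and CASAVA 1.8. The sources used here do not give the annotation release or the strand setting, so reads of genes that overlap on opposite strands, as 10 tested members do in part, cannot be told apart. The 5 summary lines (23.2% to 28.1% not unique, 5.28% to 8.11% outside genes, 0.635% to 1.85% ambiguous) stayed out. Names, positions and exon lengths came from GENCODE M21, which matched 36345 of 38293 identifiers. Genes were filtered with filterByExpr and scaled with TMM, and groups compared with edgeR 4.0.16 (glmQLFit with legacy=FALSE, glmQLFTest, R 4.3.3), and p-values were adjusted by Benjamini-Hochberg over the 14330 tested genes, with a threshold of 0.05. Standard errors are the log2 difference divided by the root of F. Alternatives were other scalings and filters, DESeq2 1.42.0, limma-voom (limma 3.58.1), a replicate block and each library left out. Described one by one were, per family, the members with the highest level per kilobase and the lowest p, Nfasc, and tested members with groups apart by at least 1 on the log2 scale. Up to 4 genes per partner list were described by lowest p. Members, lists and tests were chosen with earlier results of these data known. The fits were tested on simulated counts. The floors given for genes with no read cover counting error only.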

Additional observations from a re-analysis of the deposited data

How the results depend on the processing

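Among the 55 members 0 were called under each scaling and filter, with limma-voom and with the replicate number as a block. DESeq2 called 1 member and 17 genes in all, and with 1 library left out edgeR called between 0 and 2 members and between 0 and 216 genes, the upper values being those without WT replicate 1. The 2 members called then were Efna3 and Ntn4. The median log2 difference of the members was −0.12 without a low-count filter and −0.13 in DESeq2, both of which include more low genes. With 1 library left out it ran from −0.23 to 0.092. Counts of members above both WT libraries ran between 12 and 20, and below between 17 and 23, with 1 library left out, since fewer libraries must then be apart. Of 283 alternative values of the 26 members described one by one, 264 kept their direction and side of the threshold and 3 passed it, which are those of Nfasc in DESeq2 and of Efna3 and Ntn4 without WT replicate 1. The other 16 changed sign, and the cause was not tested. With 1 library left out the log2 differences ran from −0.031 to 0.47 for Epha2, −0.23 to 0.49 for Ephb4, −0.069 to 1.28 for Ntn1, −0.039 to 0.42 for Robo4, −3.75 to 0.32 for Sema3d, −0.23 to 0.81 for Sema4d, −1.43 to 1.09 for Slit2, −1.0 to 0.83 for Slit3 and −0.68 to 0.25 for Unc5b. The sign turned without WT replicate 2 for Epha2, Ephb4, Ntn1, Robo4, Sema3d and Sema4d, without WT replicate 1 for Slit2, Slit3 and Unc5b, without AXL KO replicate 2 for Robo4, Slit2 and Slit3, and without AXL KO replicate 1 for Epha2 and Unc5b. With the replicate block Slit2 (−0.00077) and Slit3 (−0.0095) turned as well, and the median of the members was then −0.0095. Same-numbered libraries had a correlation of deviations of −0.045 across genes, so no shared deviation was seen. This single value cannot exclude that the numbers pair the samples. With 2 libraries a group and a biological coefficient of variation of 0.31, small differences were not detectable. Large ones could miss the edgeR threshold too. Axl itself, with a 10.05-fold difference, had an unadjusted p of 0.000184 and an adjusted p of 0.9997 by edgeR. Its adjusted p by DESeq2 was 4.17e-13. Members with few reads, such as Epha3 and Epha5, are the least precise.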
